A study of Mus musculus with 4 samples.

Results

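Keratins are the proteins of the intermediate filaments of epithelial cells. A filament is built from pairs of a type I (acidic) and a type II (basic) chain, and the pair in use changes with the kind of epithelium and with the layer of the cell in it, so that keratin transcripts are commonly used to tell basal, suprabasal, simple, oral and hair-forming epithelium apart. In the tooth, the enamel organ and the oral mucosa over the crown are both epithelia that make keratins. The keratin genes described here are all genes whose symbol in the array's annotation is Krt followed by a number and at most 1 letter, measured by a probe set that names no other gene. There were 48 such genes, measured by 61 probe sets, among 18194 genes in all. The gene IDs of all 48 matched the same symbol in the reference gene table.

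The RNA came from molar teeth of Swiss-Webster mice, with no transgene, treatment or comparison group in the labels. Teeth of 60 pups of both sexes, aged 1 to 10 days after birth, were pulled by hand and pooled, and the pool was hybridised to 4 Affymetrix Mouse Genome 430 2.0 arrays, which form 1 group. The arrays share 1 RNA pool, so each SD and each p-value below measures technical spread only, and ages, animals and tissue layers are not separated. Signals are linear intensities on which all 4 arrays had been scaled alike. A gene was called above background if a probe set of it exceeded, on all 4 arrays, the 95th percentile of 86 probe sets for olfactory, vomeronasal and taste receptor genes. This threshold was 996, 1097, 1295 and 1266 signal units on arrays 1 to 4. Brightness depends on the probe, so signals are set against this threshold and not against each other as amounts of mRNA. In pooled tissue, fewer cells of a type and less RNA per cell cannot be told apart. All 9 measured marker genes of enamel and dentin were above background, with Amelx (amelogenin) at 198666 ± 42644 (SD, n = 4 arrays, as for every ± on a signal below) and Ambn (ameloblastin) at 167142 ± 28027. So were all 9 genes of connective tissue and vessels, led by Col1a2 at 195252 ± 30587 and Sparc at 182924 ± 25344. The share above background was 51.6% over all genes. It was 35.2%, 60.1% and 73.4% for genes with 1, 2 and 3 probe sets.

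Stretches of DNA just upstream of the start of 9 keratin genes are shown first, to show the TATA-box letters that were searched for and where they lie; 8 of the 9 carry them. Each run is the 60 bases before a start site in RefSeq's GRCm38.p6, read in the direction of the gene. Krt13 has 2 start sites there. The 1 shown holds ATAAAAG, and the other holds neither spelling. Capitals mark TATAAA or ATAAAAG, 2 overlapping spellings of a TATA-box core. Krt14 is included as a gene with neither spelling. The first 6 genes were above background and the last 3 were not.
Krt5 at chr15:101712906-101712965, minus strand: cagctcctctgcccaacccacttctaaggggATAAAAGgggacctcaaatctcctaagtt
Krt14 at chr11:100206031-100206090, minus strand: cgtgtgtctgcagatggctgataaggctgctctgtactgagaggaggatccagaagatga
Krt13 at chr11:100121567-100121626, minus strand: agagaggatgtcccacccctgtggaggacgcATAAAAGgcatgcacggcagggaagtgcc
Krt10 at chr11:99389365-99389424, minus strand: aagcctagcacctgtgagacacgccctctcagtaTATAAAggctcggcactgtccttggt
Krt75 at chr15:101573905-101573964, minus strand: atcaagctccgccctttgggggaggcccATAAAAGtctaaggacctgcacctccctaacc
Krt32 at chr11:100088270-100088329, minus strand: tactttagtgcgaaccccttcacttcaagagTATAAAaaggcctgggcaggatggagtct
Krt25 at chr11:99322952-99323011, minus strand: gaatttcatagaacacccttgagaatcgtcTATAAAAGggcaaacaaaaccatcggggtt
Krt28 at chr11:99374904-99374963, minus strand: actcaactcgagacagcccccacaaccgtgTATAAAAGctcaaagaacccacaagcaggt
Krt31 at chr11:100050552-100050611, minus strand: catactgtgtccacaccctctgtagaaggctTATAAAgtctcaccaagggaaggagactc

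Promoter sequences were given for 32 of the 48 keratin genes. A gene was counted if any window of it held the letters, which applies to Krt13 alone, with 2 windows. The shares over all promoters are per window. Within 15 to 45 bases before the start, 19 of these 32 genes (59.4%) held TATAAA or ATAAAAG on the gene's own strand, against 2.69% of all 32851 promoter windows. TATAAA was found there in 13 genes (40.6%, against 2.25% of all windows) and ATAAAAG in 10 (31.2%, against 0.968%), and TATAAAAG holds both. ATAAAAG was chosen after the sequences had been read, so this is a description. Either spelling was present in 6 of 12 keratin genes above background and in 13 of 20 that were not, in 12 of 16 root sheath and hair keratin genes, and in 5 of 9 basal, suprabasal, activation and oral lining keratin genes. TATAAA was present in 2 of the 12 genes above background and in 11 of the 20 others, and ATAAAAG in 4 and 6. Over the whole 300-base window and both strands, TATAAA was found in 56.2% of the 32 genes and in 13.6% of all windows, and ATAAAAG in 37.5% and 5.42%. The letters GCCNNNGGC, the core bound by AP-2 factors, were found in 4 of 32 keratin genes (12.5%) and in 16.6% of all windows.

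Of the 48 keratin genes, 20 were above background on all 4 arrays, 9 exceeded the threshold on 1 to 3 arrays and 19 exceeded it on no array. Over all genes the share above background was 51.6%. Most keratin genes had 1 probe set, and among those 13 of 39 were above background, where the share over all genes with 1 probe set was 35.2%. With 2 probe sets it was 3 of 5, against 60.1%, and with 3 probe sets 4 of 4, against 73.4%. Keratin genes with 1 or 2 probe sets were thus called about as often as all genes with that number, which is not a result about keratins. By limma, which tested each gene's signal against the threshold, 19 of the 48 passed a Benjamini-Hochberg adjusted p of 0.05, where 51.1% of all genes did. All 19 were among the 20. The median log2 ratio of signal to threshold was -0.014 for the keratin genes and 0.51 for all genes.

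By class, the counts ran from all members to none. Keratins of stratified epithelium (basal, suprabasal, activation-associated and oral lining) were above background for 13 of 17 measured members. Keratins of the hair root sheath and hair shaft were above background for 3 of 21. Simple epithelial keratins gave 3 of 6, the corneal keratin Krt12 gave 0 of 1, and of the 3 remaining keratins 1 was above background. By limma these counts were 13, 2, 3, 0 and 1. Over all genes the share above background was 51.6%, but it differed with the number of probe sets, and so did the classes. All 21 root sheath and hair genes had 1 probe set, where the share over all genes was 35.2%. Among the 17 genes of stratified epithelium, Krt4 and Krt17 had 2 probe sets (share 60.1%). Krt6a, Krt13 and Krt14 had 3 (share 73.4%), and the others had 1. The classes were assigned from the known tissues of each keratin and hold few genes, so the counts are descriptions, and the difference between classes was not tested.

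**Figure D1:**
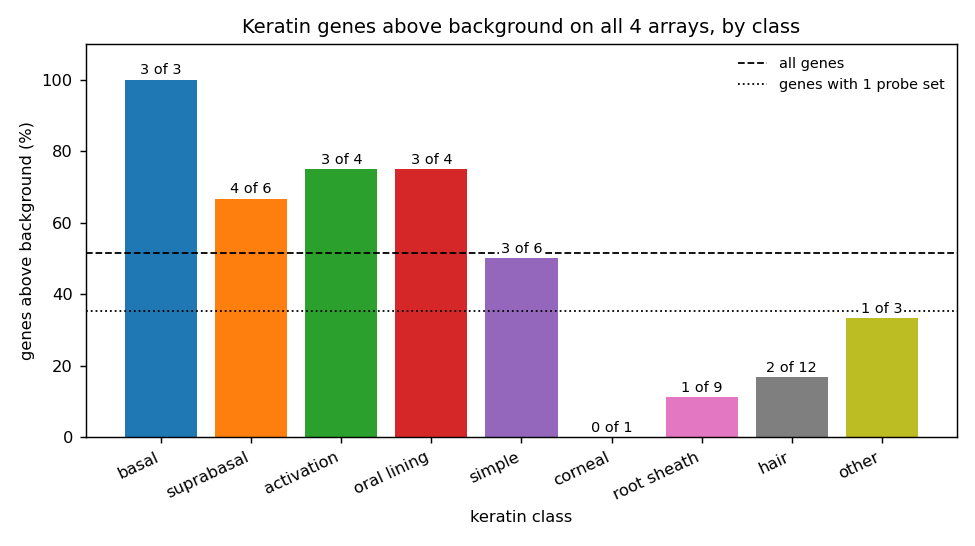
Percentage of measured keratin genes above background on all 4 arrays (y axis) for each keratin class (x axis), with the counts over the bars. The dashed line marks 51.6% for all genes and the dotted line 35.2% for genes with 1 probe set: the basal, suprabasal, activation and oral lining bars stand above both lines, the simple bar lies between them, and the corneal, root sheath, hair and other bars lie below both.

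The basal keratin genes were all above background. Krt5 and Krt14 encode the partner chains of the basal layer of stratified epithelia, including the enamel organ. Krt5 (probe set 1424096_at) had signals of 105971, 122541, 108156 and 135224 on arrays 1 to 4. Krt14 (1423935_x_at) had 84056, 77185, 84779 and 91997. All 4 values of each gene lay far above the threshold, from 83.5 to 112 times the threshold for Krt5 and from 65.5 to 84.4 times the threshold for Krt14, and by limma the log2 ratio to the threshold was 6.66 ± 0.15 (SE) for Krt5 and 6.19 ± 0.13 (SE) for Krt14, with an adjusted p of 1.42e-20 for each. Krt15, a basal keratin also known from hair follicle stem cells, had signals of 7726, 6989, 4744 and 6902. Array 3 gave the lowest Krt15 value, 3.66-fold the threshold, and the limma adjusted p was 8.48e-14.

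Molecular partners of the basal filaments were measured in the same pool, and their counts are to be read against the 51.6% of all genes that were above background. That share was 35.2% for genes with 1 probe set, 60.1% with 2 and 73.4% with 3, and many of these partners had more than 1. Hemidesmosome genes, which anchor keratin filaments to the basement membrane, were above background for 6 of 6 measured members, among them Plec (plectin) at 29065 ± 3926 and Cd151 at 28766 ± 2383. Desmosome genes, which tie filaments to cell junctions, gave 9 of 12, with Perp at 64107 ± 3967 and Dsp (desmoplakin) at 39387 ± 2735. A further list was drawn up for genes whose products bind, bundle or regulate keratins, and this role was not checked for each member. Of its 14 measured genes, 10 were above background, led by the casein kinase gene Csnk1a1 at 37805 ± 1147 and Stub1 at 15185 ± 447. Both are active in most cells. Fam83h, whose product recruits casein kinase 1 to keratin filaments and which is mutated in an inherited enamel defect, had 2774 ± 123. Transcription factors of epithelium gave 7 of 13 (53.8%), near the share of all genes, with Trp63 (p63), a factor that binds basal keratin genes, at 26758 ± 7197 and Klf4 at 20814 ± 3266. Fam83h was chosen for mention after its value had been seen.

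Suprabasal keratin genes were above background for 4 of 6 measured members. Krt1 and Krt10 encode the pair that replaces Krt5 and Krt14 as cells leave the basal layer of cornifying epithelium. Krt1 had signals of 8357, 7287, 8758 and 8599 and Krt10 10548, 9527, 8394 and 9675. All values of both genes were 6.48-fold the threshold or more. Krt80, a further type II keratin, had 12580, 14339, 13987 and 14781, and Krt78 had 3668, 3723, 2850 and 3865. Array 3 was lowest for Krt10 and Krt78. The limma adjusted p was 4.46e-19 for Krt80, 8.45e-17 for Krt10, 7.96e-17 for Krt1 and 4.90e-10 for Krt78. Krt77, known from sweat gland ducts and embryonic skin, and Krt2, a keratin of the uppermost spinous layers, exceeded the threshold on 0 arrays, at 573 ± 209 and 77.8 ± 20.1.

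Markers of cornified epithelium stood beside the suprabasal keratins. Of 20 measured, 15 (75%) were above background, against 51.6% of all genes, and 14 passed by limma, which lost Lce1a1 (adjusted p = 0.11). The 15 included Lor (loricrin) at 18867 ± 2922 and Sprr3, a small proline-rich protein gene of oral and oesophageal lining, at 11414 ± 992. Their summed signal ranged from 87190 to 100908 over the arrays. Ivl (involucrin) exceeded the threshold on 0 arrays, Sprr1b on 1, Dsc1 and Lce1b on 2 each and Flg (filaggrin) on 3. Lce1a1 and these 5 genes are named after their values had been seen. How much of the Krt1, Krt10, Krt78 and Krt80 signal came from cornifying mucosa was not tested.

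Activation-associated keratins, found in oral mucosa, in hair follicles and in wounded or rapidly dividing epidermis, were above background for 3 of 4 measured members. Krt17 had signals of 37688, 31013, 32835 and 31471, with array 1 highest. Krt6a had 25750, 30519, 25914 and 31630, with arrays 2 and 4 above arrays 1 and 3. Krt6b had 5544, 5399, 4650 and 5056, from 3.59 to 5.57 times the threshold. By limma the log2 ratio to the threshold was 4.84 ± 0.12 (SE) for Krt17 (adjusted p = 3.71e-20), 4.61 ± 0.11 (SE) for Krt6a (adjusted p = 2.94e-20) and 2.15 ± 0.13 (SE) for Krt6b (adjusted p = 2.24e-13). Krt16, the type I partner most often named with Krt6, had 1316, 1003, 1041 and 575. Only array 1 exceeded its threshold for Krt16, and limma gave a log2 ratio of -0.29 ± 0.28 (SE). Krt6a and Krt6b are close copies, and whether each probe set separates them was not tested.

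Oral lining keratins were above background for 3 of 4 measured members. Krt4 and Krt13 encode the pair of non-cornified oral and oesophageal mucosa. Krt4 had signals of 47155, 59159, 46029 and 56734, from 35.5 to 53.9 times the threshold. Krt13 had 26948, 20626, 23645 and 19445, from 15.4 to 27.1 times the threshold. Arrays 1 and 3 gave the lower values for Krt4 and the higher ones for Krt13, so the order of the arrays was not shared by the pair. The limma adjusted p was 1.52e-20 for Krt4 and 3.25e-19 for Krt13. Krt24, a less studied type I keratin placed in this class, had 2219, 1854, 2166 and 2432, and its log2 ratio was 0.90 ± 0.17 (SE) (limma adjusted p = 2.65e-05). Krt76, the keratin of hard palate and gingiva, had 1498, 1421, 1201 and 1096. Krt76 exceeded the threshold on arrays 1 and 2 and stayed below it on arrays 3 and 4 (limma adjusted p = 0.44).

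Simple epithelial keratins were above background for 3 of 6 measured members. Krt8 and Krt18 encode the pair of single-layered epithelia, and Krt7 is a keratin of ducts and glands. Krt8 had signals of 2704, 3741, 4207 and 3012, Krt7 2894, 3037, 2639 and 2672 and Krt18 2565, 2354, 2971 and 1975. The lowest value was 1.56-fold the threshold, for Krt18 on array 4, and the highest 3.41-fold, for Krt8 on array 2. The log2 ratio was 1.54 ± 0.14 (SE), 1.28 ± 0.15 (SE) and 1.08 ± 0.16 (SE) for Krt8, Krt7 and Krt18, with limma adjusted p-values of 5.54e-10, 4.70e-08 and 1.99e-06. Krt8 and Krt7 were each represented by a probe set with the suffix _a_at. Without probe sets carrying the suffixes _s_at, _x_at or _a_at, Krt7 and Krt8 had no probe set left. Krt18 was then the only simple keratin above background, 1 of the 4 still measured.

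The other simple keratins did not pass. Krt23 had 1599, 891, 1713 and 1236 and exceeded the threshold on arrays 1 and 3. Krt19, a keratin of ducts, had 1076, 882, 936 and 334, with array 1 alone over its threshold and array 4 lowest. Krt20, of gut lining and Merkel cells, exceeded it on 0 arrays, at 574 ± 334. Of 16 measured genes of simple and glandular epithelium, 3 (18.8%, against 51.6% of all genes) were above background, Cdh1 (E-cadherin) at 28269 ± 3493, the ion cotransporter gene Slc12a2 at 17365 ± 748 and Epcam at 10967 ± 6139, none of which is restricted to glands. The summed signal of these 16 genes ranged from 51352 to 71458 over the arrays, and 11 of them exceeded the threshold on 0 arrays. The water channel gene Aqp5 of salivary acini had 141 ± 172 and Muc1, a mucin of gland surfaces, 52.8 ± 28.7, both over the threshold on 0 arrays and both named after their values had been seen. Of 8 Merkel cell genes 0 were above background by the all-array call, and Piezo2, at 963 ± 175, exceeded the threshold on 1 array. Piezo2 is named after its value had been seen. Most of these 8 genes, and most of the 16 before, had 1 probe set, where the share over all genes was 35.2%. By limma 0 of the 8 passed, and 0 had an unadjusted p under 0.05.

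**Figure D2:**
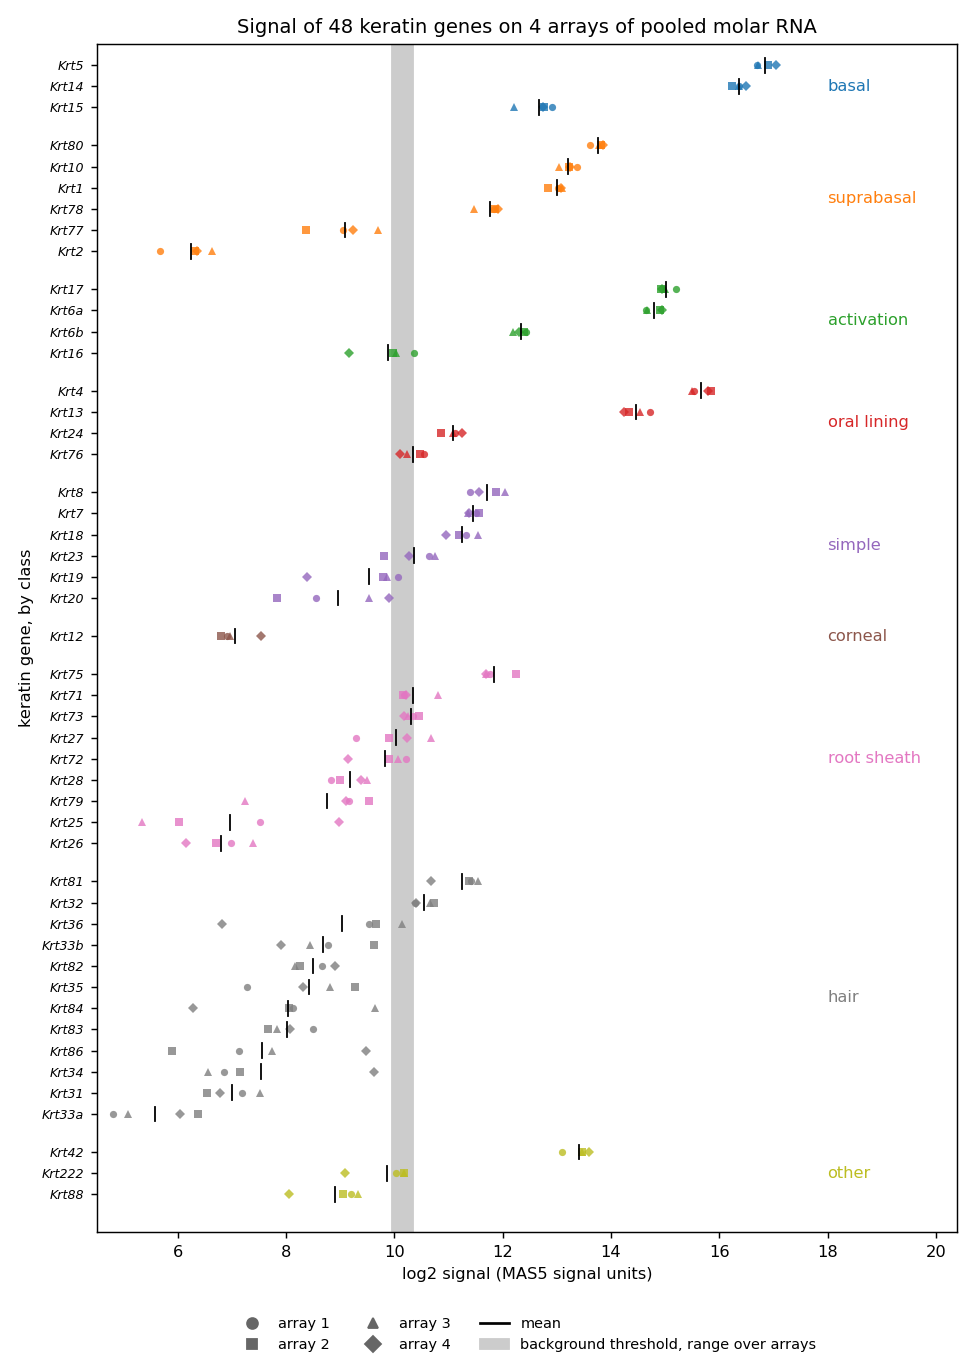
Log2 signal (x axis, MAS5 signal units) of each of the 48 keratin genes (y axis, grouped and coloured by class) on arrays 1 to 4 (symbols), with the mean as a black tick and the range of the background threshold over the arrays as a grey band. Krt5 and Krt14 lie farthest to the right of the band, most root sheath and hair keratins lie on or left of it, and many genes there, such as Krt25 and Krt36, have widely spread points.

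Root sheath keratins were above background for 1 of 9 measured members. Krt75, a keratin of the companion layer of the hair follicle that has also been found in the enamel organ and in mature enamel, had signals of 3468, 4850, 3293 and 3326. Array 2 stood above the other 3, and the lowest value was 2.54-fold the threshold. The log2 ratio was 1.67 ± 0.15 (SE) (limma adjusted p = 2.89e-10). No inner root sheath keratin exceeded the threshold on all 4 arrays. Krt71 had 1153, 1148, 1798 and 1189 and exceeded it on 3 arrays, all but array 4, so that 2 root sheath keratins were above background without array 4. Krt73, at 1265 ± 107, exceeded it on 2 arrays, and Krt27, at 1104 ± 425, and Krt72, at 944 ± 268, on 1 each. Krt25, Krt26, Krt28 and Krt79, the last a keratin of the hair canal, exceeded it on 0 arrays.

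Hair shaft keratins were above background for 2 of 12 measured members. Krt81, of the hair cortex, had signals of 2746, 2668, 2982 and 1632, with array 4 lowest, and its log2 ratio was 1.08 ± 0.18 (SE) (limma adjusted p = 6.28e-06). Krt32, of the hair cuticle, had 1340, 1688, 1619 and 1346. All 4 values lay above background, from 1.06 to 1.54 times the threshold, and the limma adjusted p of 0.0803 missed the threshold of 0.05, which left 1 hair keratin by limma. The other 10 (Krt31, Krt33a, Krt33b, Krt34, Krt35, Krt36, Krt82, Krt83, Krt84 and Krt86) exceeded the threshold on 0 arrays. Across all classes the 19 keratin genes over it on 0 arrays had mean signals from 52.6 to 697. The highest were Krt36 at 697 ± 424, Krt28 at 587 ± 124 and Krt20 at 574 ± 334, and the lowest Krt33a at 52.6 ± 26.1, Krt2 at 77.8 ± 20.1 and Krt26 at 117 ± 40.2. No such value shows that a transcript was absent.

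Hair follicle markers were measured beside these keratins. Of 18, 3 (16.7%) were above background, against 51.6% of all genes, Msx2 at 20169 ± 1607, Padi3 (a peptidylarginine deiminase) at 2239 ± 230 and Tchh (trichohyalin, also in tongue papillae) at 1737 ± 153. Msx2 is also a gene of tooth development. The summed signal of the 18 ranged from 29585 to 31903 over the arrays, and 12 of them exceeded the threshold on 0 arrays. Hoxc13, the factor that drives hair keratin genes, had 269 ± 52.2 and exceeded the threshold on 0 arrays. Among all 38 measured keratin-associated protein genes (Krtap), which fill the hair cortex, 2 (5.26%) were above background, Krtap12-1 at 2439 ± 524 and Krtap19-1 at 1492 ± 474. Most of the 38, and most of the 18 markers, had 1 probe set, and the share over all genes with 1 probe set was 35.2%. The 2 counts overlap: Krtap3-1, Krtap4-1, Krtap5-1, Krtap8-1, Krtap11-1, Krtap13-1, Krtap14 and Krtap15, none above background, are among both the 18 markers and the 38. By limma 1 of the 38 passed, since Krtap19-1 had an adjusted p of 0.13. Hoxc13 and the full Krtap family were chosen for mention after their values had been seen.

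Of the 3 keratins outside these classes, Krt42, a mouse type I keratin of the nail also named K17n, was above background. Its probe set 1439765_x_at had signals of 8796, 11259, 11263 and 12291. The suffix _x_at marks probes that may bind other transcripts, and the gene's other probe set, 1430208_at, had signals of 1233, 1583, 1549 and 1442, over the threshold on all 4 arrays but on each array below the first. The level of Krt42 is uncertain. Krt222, a keratin-like gene at the edge of the type I cluster, exceeded the threshold on arrays 1 and 2, with 1048, 1163, 1153 and 542, and Krt88 on 0 arrays, at 506 ± 168.

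Of 6 well-known pairs of partner chains, 4 had both chains above background: Krt5 with Krt14, Krt1 with Krt10, Krt4 with Krt13, and Krt8 with Krt18. The other 2 had 1 chain above background, Krt6a without Krt16 and Krt10 without Krt2. These 6 pairs were listed after the values had been seen and Krt10 stands in 2 of them, so the count is a description. Type II genes were above background for 11 of 23 and type I genes for 9 of 25, where the share over all genes was 51.6%, and the difference between the types was not tested.

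The keratin genes lie in a type I and a type II cluster, with Krt18 as the type I gene at the end of the type II cluster. Along the gene order of GRCm38.p6, counting only measured keratin genes, the longest run of neighbours above background was 4, from Krt75 through Krt6b and Krt6a to Krt5 in the type II cluster. Krt9, Krt39, Krt40, Krt74, Krt87 and Krt90 lie in these clusters and are not analysed here. Next to Krt5, the 4 genes from Krt71 to Krt2 were not above background. Krt78, Krt8 and Krt18 formed a run of 3. In the type I cluster, runs above background held at most 2 genes, Krt13 with Krt15 and Krt17 with Krt42, while a run of 7 from Krt12 to Krt31 and a run of 4 from Krt25 to Krt28 were not above background. Hair and root sheath genes account for 4 of those 7 and for all 4 of the latter.

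**Figure D3:**
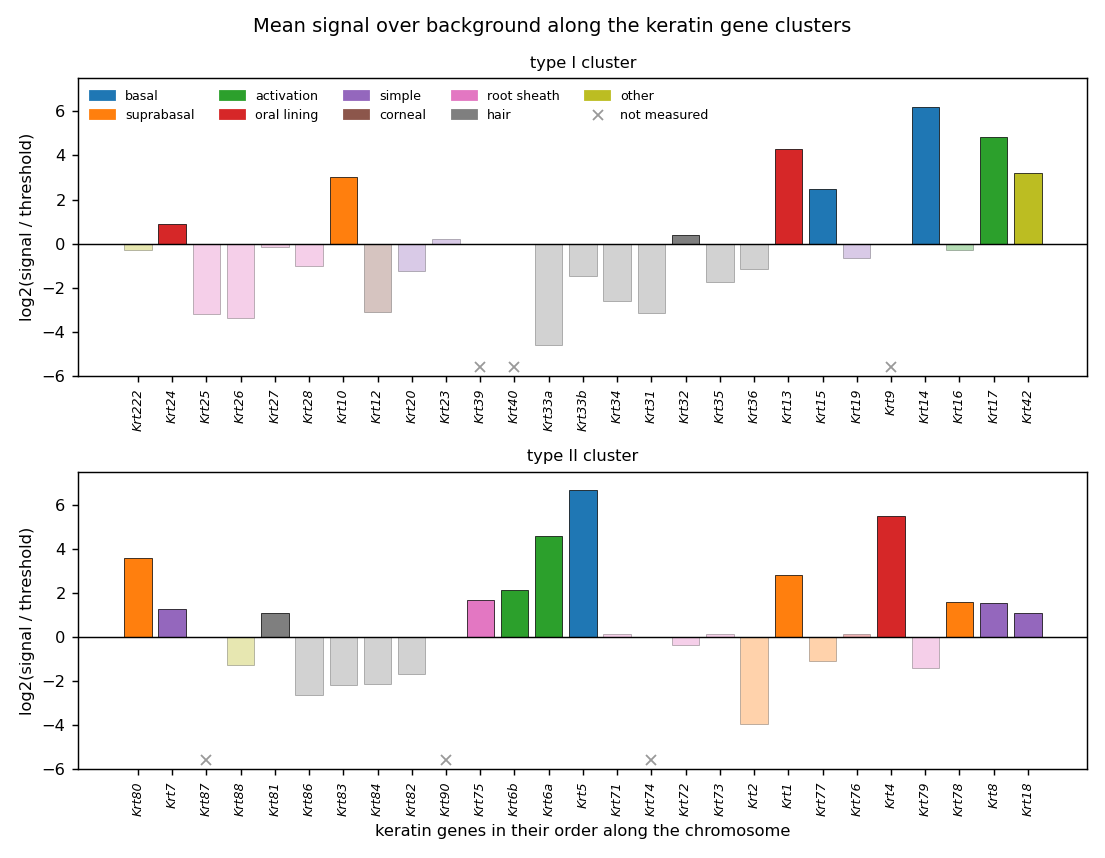
Mean log2 ratio of signal to background threshold (y axis) for keratin genes in their order along the type I cluster (top) and the type II cluster (bottom), coloured by class. Full colour marks genes above background on all 4 arrays, pale colour genes that were not, and a cross genes not measured here; the run from Krt75 to Krt5 stands out in the type II cluster, and bar heights are not amounts of mRNA because probes differ.

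Different probe sets of 1 gene could lie far apart. Of 9 keratin genes with more than 1 probe set, 6 had every probe set above background, 1 (Krt17) had some and 2 (Krt12 and Krt222) had none. Krt14 had mean signals of 84504 ± 6055 for 1423935_x_at, 70894 ± 2887 for 1460347_at and 1546 ± 59.9 for 1455573_at. For Krt13 they were 22666 ± 3358, 3773 ± 680 and 1806 ± 278, and for Krt6a 28453 ± 3061, 14749 ± 868 and 7449 ± 786. For Krt4 they were 52269 ± 6646 and 31519 ± 2141. The second probe set of Krt17, 1420193_at, had 984 ± 582 and exceeded the threshold on 2 arrays. In these 5 genes the brightest and dimmest probe sets differed by more than the spread between arrays, so a keratin's signal describes its brightest probe set. A further probe set that names Krt17 and Krt14 together had signals of 1824, 1267, 1518 and 716 and was not used.

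**Figure D4:**
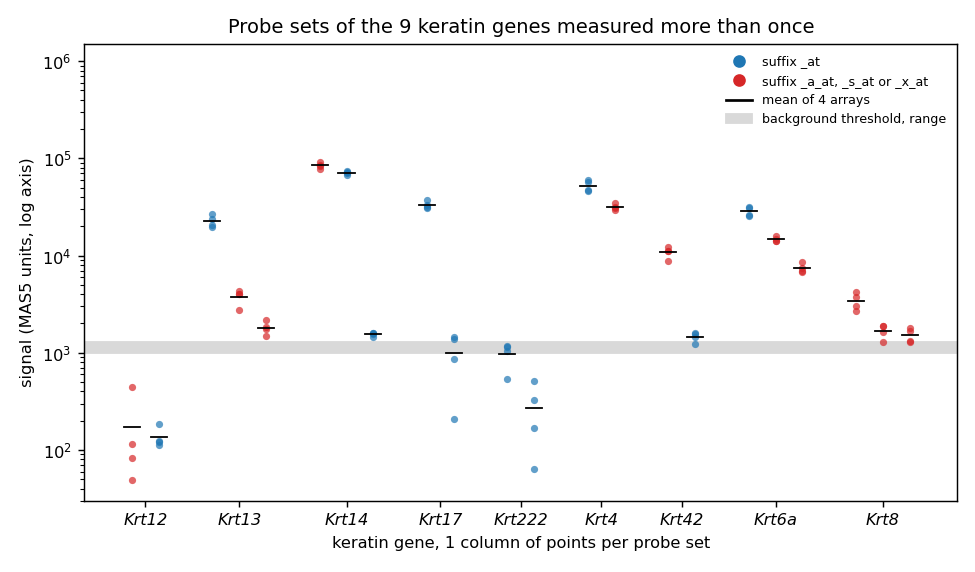
Signal on a log axis (y axis, MAS5 units) of every probe set of the 9 keratin genes measured more than once (x axis, 1 column of 4 points, 1 per array, for each probe set), with the mean as a bar and the range of the background threshold in grey. Blue points are probe sets with the suffix _at and red points those with _a_at, _s_at or _x_at; probe sets of Krt13, Krt14, Krt17 and Krt42 lie far apart.

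The 4 arrays lay closer together for keratins above background than for the others. The median SD of log2 signal was 0.17 for the 20 keratin genes above background, against 0.16 for all genes above background, and ranged from 0.096 for Krt7 to 0.39 for Krt81. For the 28 others it was 0.54, against 0.62 over all genes not above background, and reached 1.62 for Krt25. Single arrays had 28, 24, 23 and 20 keratin genes over their own threshold, in the order of arrays 1 to 4. Array 4 gave the lowest value for 11 of the 28 keratin genes not above background and for 3 of the 20 that were, and over all genes for 3048 of 8802 and 2380 of 9392.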

How the data were processed

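The deposited table holds signal intensity values for 45101 probe sets on 4 arrays, made by the authors with MAS5 per the submitters' processing notes; no source used here states its version or settings. The trimmed mean signal (without the lowest and highest 2%) was 2500 on each array, so the arrays had been scaled linearly. Low signals are noisy in MAS5, where the mismatch probes' estimate is taken off. The number of arrays limits the precision. The platform annotation names 1 gene for 34958 probe sets and several genes for 932, which were not used. Replicate numbers come from the sample titles.

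Each gene is represented by the probe set whose log2 signal is highest on average, and its call is yes if any of its probe sets exceeded the threshold on all 4 arrays. limma 3.58.1 in R 4.3.3 (lmFit, eBayes with a mean-variance trend) tested log2(signal / threshold of the array) against 0, one-sided, with Benjamini-Hochberg adjustment over 18194 genes. A threshold estimated from the same arrays enters each ratio without its own error. The procedure was tested on simulated data, with 50 genes set at each level over background. At 1.5-fold the all-array call found 96% of the 50 and limma 0%. At 2-fold the shares were 100% and 86%, and at 4-fold and 8-fold 100% by both. Of 17994 genes left at background, both called 0%. Most genes in the simulation were thus at background, and in the measured data 51.1% of all genes passed by limma. There, Tchh at a mean of 1.50-fold the threshold passed (limma adjusted p = 0.00545), as did Elf3 at 1.56-fold (limma adjusted p = 0.00254). Krt32 at 1.29-fold did not (limma adjusted p = 0.0803). Whether the limma shares of the simulation carry over to the measured signals was not tested.

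Text names every keratin above background or over the threshold on 1 to 3 arrays, the 3 highest and 3 lowest of the rest, and of each other list the 2 brightest members that were above background; further genes are marked where they occur. The keratin genes, their classes and all lists were chosen with earlier results of these data known. Dsg1a and Dsc1 stand in both the desmosome and the cornified list. Flg and Tchh stand in the list of genes that bind, bundle or regulate keratins. Flg is also in the cornified list and Tchh in the hair follicle list. Alternatives were the 99th and 75th percentiles, a background of 22 probe sets for liver, pancreas and retina genes, and a call on at least 3 arrays. Further ones were the limma call, limma without the trend, quantile normalization, and leaving out probe sets with the suffixes _s_at, _x_at or _a_at. Leaving out these suffixes removed some genes altogether, so it does not test binding to other transcripts. The others were the highest probe set alone or the median over a gene's probe sets, and omission of each array in turn. Promoters are RefSeq's (GRCm38.p6), 250 bases before to 50 after a start. Control tissues named in the study's design are not analysed here. Figures were drawn with matplotlib 3.10.9.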

Additional observations from a re-analysis of the deposited data

Results flagged for a closer look

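In 4 of 50 sets of 4 values, 1 array lay apart from the other 3 by a gap test, where chance gives about 1 in 20 (2.5 of 50). Krt75 was higher on array 2, with a log2 signal of 12.24 against 11.69 to 11.76, and was above background on every array. Krt71 was higher on array 3, at 10.81 against 10.16 to 10.22. Krt19 was lower on array 4, at 8.39 against 9.79 to 10.07, and so was Krt222, at 9.08 against 10.03 to 10.18. Of these 4 genes only Krt75 was above background on all 4 arrays.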

How the results depend on the processing

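The count of 20 keratin genes above background ranged from 17 to 28 under the 9 alternatives that kept all 4 arrays. It was 20 or 21 when each array was left out. The count of 19 by limma ranged from 15 of 42 without _s_at, _x_at and _a_at probe sets to 28 of 48 with the 75th percentile. The share of all genes moved with the same settings. It was 65.3% where 28 of 48 keratin genes were called (75th percentile), 48.2% with the 99th percentile and 55.9% with a call on at least 3 arrays. Without _s_at, _x_at and _a_at probe sets it was 46.6%, and with the median probe set 39.3%. Of the 20 genes, 19 kept their call under each alternative in which they were measured by the all-array or at-least-3-array rule; Krt32 lost it with the 99th percentile and with the liver, pancreas and retina background. The hair count of 2 became 1 under these 2 settings and by limma. The root sheath count of 1 became 5 with the 75th percentile and 2 with a call on at least 3 arrays, and ranged from 1 to 2 when each array was left out, Krt71 being added without array 4. The count of 1 among the remaining keratins became 2 with the 75th percentile. With that percentile the activation, oral lining and simple counts of 3 each became 4. The simple count of 3 became 1 without _s_at, _x_at and _a_at probe sets, which left 4 simple keratins. That setting removed 6 keratin genes, 3 of them above background (Krt7, Krt8 and Krt10). The cause of the other changes was not tested. Signals close to the receptor background have no firm call. No paired analysis was possible because the 4 arrays form 1 group.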
